A study of Gallus gallus with 28 samples.

Results

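A set of 26 genes, out of 11207 listed for the anterior preoptic hypothalamus of the chick, was expressed in unchallenged birds and stood modestly higher 6 h after lipopolysaccharide (LPS), with no like rise under heat. The set was chosen from the measured values themselves. Levels were compared as log2(CPM + 1), where CPM is the raw count scaled to a common library total by the sum of its column. A member had to average at least 10 CPM over the 6 unchallenged (t0) libraries. Its mean over the 6 LPS libraries had to exceed its t0 mean by 0.4 to under 1 on the log2 scale. In CPM + 1 that is 1.32-fold to under 2-fold. A member's lowest LPS library had to lie above its highest t0 library. In the non-conditioned lineage its heated mean had to exceed its t0 mean by less than 0.4. The LPS and t0 levels and that lineage's heated libraries thus chose the members, and their values are a description. The heated libraries of the conditioned lineage were not used in the choice. The rule did not compare the lineages, but each lineage difference takes libraries that it used, so the tests of those differences are not independent of the choice.

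The birds were chicks of Gallus gallus, sampled at 10 days of age as whole tissue lysate. The strain is given as Cobb, a broiler (meat) strain, with the methylation samples of the series and not with the RNA libraries. The 18 RNA libraries fall into 6 groups of 3, a challenge crossed with the history of the parents. The control chicks were unchallenged (t0). The others were sampled 6 h into a challenge, either a 36 °C environment in place of 30 °C (heat) or an injection of LPS into the third ventricle of the brain. Parents had been heat conditioned as embryos (the conditioned lineage) or not (the non-conditioned lineage), and the chicks themselves had not been conditioned. The protocol given with the methylation samples of the series describes conditioning as 39.5 °C for 12 h a day from embryonic day 7 to 16, against 37.8 °C in control eggs. No group received an injection without LPS or waited 6 h without a challenge, so LPS cannot be told apart from injection, handling and elapsed time. The labels do not say whether each library is 1 bird, and the p-values measure the spread between libraries, which may in part be technical.

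LPS is a cell wall component of Gram-negative bacteria. It is sensed by Toll-like receptor 4 on microglia, macrophages and endothelial cells, and sets off signalling through NF-kB and then through secreted cytokines. The preoptic area holds temperature-sensitive neurons, and prostaglandin made in response to inflammatory signals acts there to produce fever. The members can be given only by Ensembl identifier, because the count table holds no gene names. A RefSeq table of 25635 chicken genes carried no Ensembl identifiers, so that it could pair 0 of the 11207. The role of each member is therefore not stated, lists of immune, chaperone and cell type marker genes were not applied, and the labelled tissue was not checked against its markers. More cells of a type and more RNA per cell cannot be told apart in such bulk tissue, nor can fewer cells and less RNA per cell.

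Library totals ran from 828424 to 4589179 counts. At t0 depth and lineage went together, with 3379626 to 4589179 counts without and 828424 to 1422688 with conditioned parents. On the first principal component of the 6037 genes at or above 10 CPM at t0, with 24.1% of the variance, the conditioned lineage's t0 libraries 2 and 3 scored -25.4 and -46.8, and the other 16 scored -13.8 or more. Several edgeR results for the members as a set are also given without this pair, with 8910 genes then tested. Estimates of single members and the DESeq2 and voom calls take all libraries unless stated. At this depth the members held between 6 and 2831 counts in their lowest t0 library (median 48). In 3 members that library had fewer than 10 counts, and in 6 fewer than 20.

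The choice narrowed in steps. Of the 6037 genes at the required t0 level, 94 had every LPS library above every t0 library, which is 1.56% of them (40 genes, or 0.663%, had the reverse). Of the 94, 59 differed by a log2 value of 1 or more, 6 by less than 0.4 and 29 lay between. The heat limit removed 3 of the 29. A further 254 genes met the limits on level, LPS difference and heat but had overlapping LPS and t0 libraries, and 4 failed only on the t0 level. The limits were not natural breaks throughout. The member just inside the upper LPS limit had a difference of 0.98 and the gene just outside 1.03, while at the lower limit these were 0.45 and 0.33. At the heat limit the nearest values were 0.34 and 0.83, and at the t0 level 10.1 and 8.54 CPM. The separation was the finest line. The log2 ratio of the lowest LPS to the highest t0 library was 0.02 in the member nearest to overlap, ENSGALG00000002576.6, and -0.01 in the gene just outside.

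**Figure D1:**
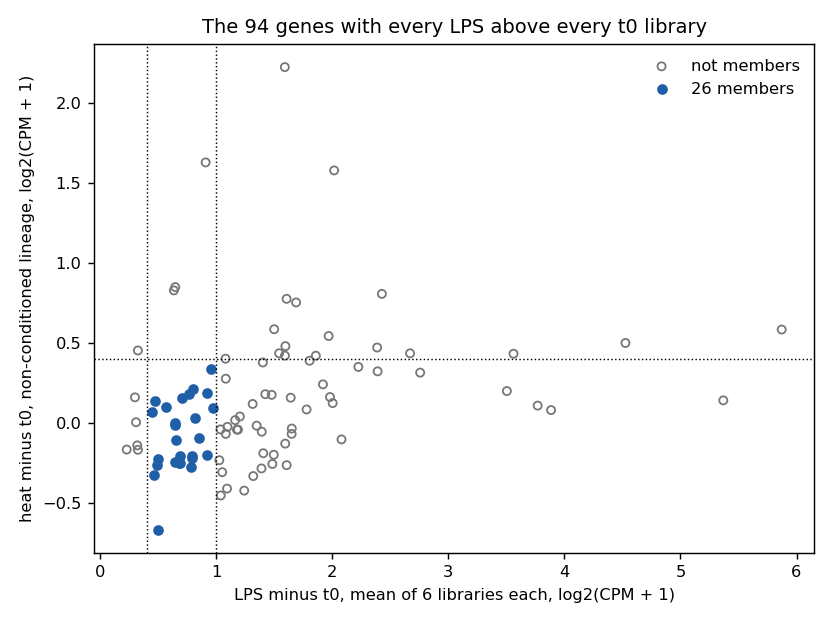
Each point is 1 of the 94 genes at or above 10 CPM at t0 in which all 6 LPS libraries exceeded all 6 t0 libraries, with the mean LPS difference on the x axis and the mean heat difference of the non-conditioned lineage on the y axis, both on the log2(CPM + 1) scale. Dotted lines mark the limits of 0.4 and 1, and the 26 members (filled) fill the box at the lower left.

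The members spanned a wide range of abundance. Their t0 means had a median of 57.6 CPM, with 8 members from 10 to under 30 CPM, 12 from 30 to under 100 and 6 at 100 or more. The lowest stood at 10.1 CPM and the highest, ENSGALG00000007220.4, at 2992 CPM. Quartiles were 25.3 and 80.9 CPM, beside 22.7 and 117 CPM for the 6037 genes, so that apart from this 1 gene the set sat in the ordinary range of expressed genes. CPM here compares a gene between libraries, and 3′ libraries of this kind read transcript ends rather than whole lengths.

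After LPS the median member was 1.61-fold above t0 in CPM + 1, with a range of 1.37-fold to 1.97-fold. These are mean log2(CPM + 1) differences of 0.45 to 0.98, with a median of 0.69. Ratios of plain CPM differ from them. The member with the largest difference, ENSGALG00000012921.6, went from a mean of 18.2 to 36.9 CPM. The gap that separated the libraries was narrow. The lowest LPS library exceeded the highest t0 library by a factor of 1.02 to 1.32, with a median of 1.08. LPS library 3 of the conditioned lineage was the lowest of the 6 in 8 members, and t0 library 2 of that lineage the highest of the 6 in 8 members. As a share of all counts the members took 0.430% ± 0.00099 at t0 and 0.768% ± 0.024 under LPS in the non-conditioned lineage, and 0.503% ± 0.025 and 0.749% ± 0.058 in the conditioned lineage (SD, n = 3 each). Between 60.6% and 67.4% of these counts came from ENSGALG00000007220.4 (60.1% to 70.8% over all 18 libraries). Without it the shares were 0.167% ± 0.0047 and 0.280% ± 0.0044 in the non-conditioned lineage, and 0.168% ± 0.0078 and 0.271% ± 0.024 in the conditioned lineage. All 26 members lay above their own t0 mean in each of the 6 LPS libraries, as the rule required.

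**Figure D2:**
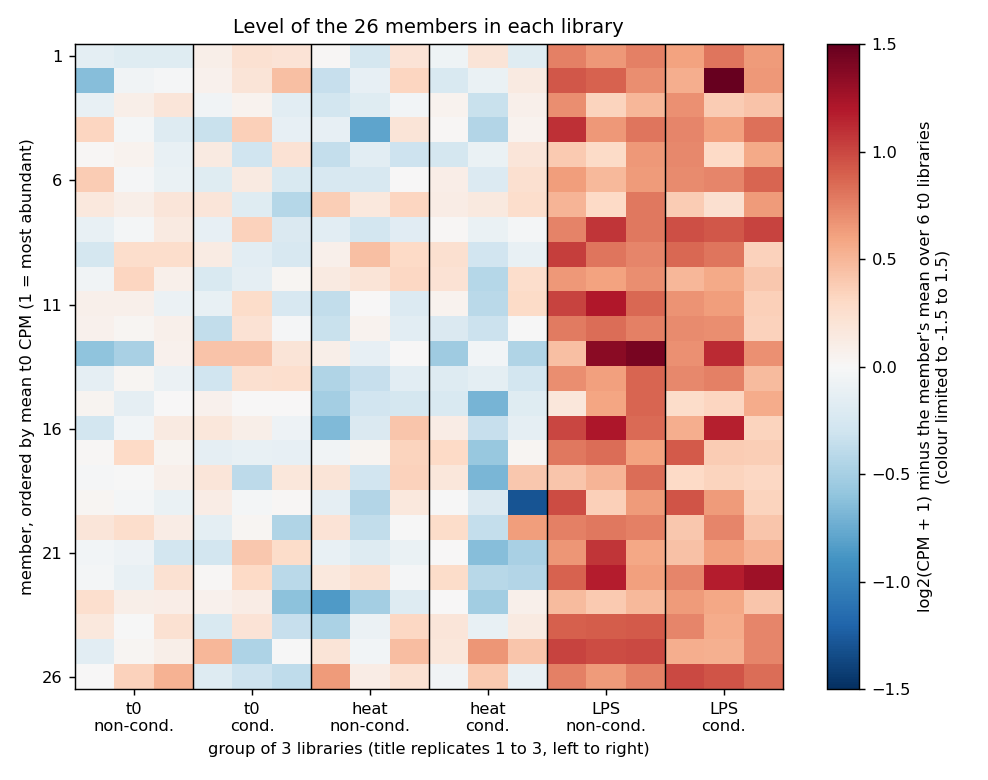
Rows are the 26 members ordered by t0 level, columns the 18 libraries in groups of 3, and colour is log2(CPM + 1) minus the member's mean over the 6 t0 libraries. The 6 LPS columns are red in every row, by median values of 0.54 to 0.75, while t0 and heated columns mix both colours around 0.

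Tested in each lineage alone, more members passed for LPS against t0 in the non-conditioned than in the conditioned lineage. In the edgeR quasi-likelihood fit over all 18 libraries, with p-values adjusted by the Benjamini-Hochberg method over 7921 genes and a threshold of 0.05, 18 of 26 members were higher under LPS in the non-conditioned lineage, where 2.21% of all genes tested were called higher. In the conditioned lineage it was 5 of 26, beside 1.17% of all genes. On the average of both lineages it was 24 of 26, beside 2.92%. The rule used these contrasts, so nothing is read from the counts. Median log2 differences over the members were 0.83 and 0.64 in the non-conditioned and conditioned lineage, beside 0.00 and 0.02 over all genes tested. The 5 genes behind the smaller count were ENSGALG00000007728.4, ENSGALG00000002598.6, ENSGALG00000010318.5, ENSGALG00000026373.2 and ENSGALG00000036726.2, of which 3 were also called in the other lineage. Without the pair of t0 libraries that stood apart, the counts were 16, 1 and 16, with a single t0 library left in the conditioned lineage that was taken to vary like the other groups. Without t0 library 2 or 3 alone, the count in the conditioned lineage was 2. Leaving out t0 library 1 or 2 or LPS library 1 or 2 of the non-conditioned lineage lowered its count from 18 to between 9 and 11. Without t0 library 1 of that lineage the count was 10, beside 136 of 8169 genes called higher, where the full fit had 18 beside 175 of 7921. The counts of the other refits stand without shares of all genes. Those counts do not show whether members lost more calls than genes in general.

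ENSGALG00000007728.4 had the largest LPS difference relative to its standard error. In the t0 libraries it stood at 70.5, 74.5 and 83.7 CPM in the non-conditioned and at 69.6, 96.7 and 65.2 CPM in the conditioned lineage. Under LPS it stood at 128, 161 and 132 CPM and at 150, 146 and 154 CPM. The lowest LPS value lay well above the highest t0 value, by the widest ratio of any member, 1.32. The fitted log2 difference was 0.95 ± 0.14 (SE) without and 0.96 ± 0.15 with conditioned parents. Under heat the same gene stood at 68.1, 62.8 and 67.7 CPM and at 76.9, 70.8 and 74.5 CPM, within the range of the t0 libraries but for the lowest heated one.

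ENSGALG00000007220.4 was the most abundant member. Its t0 levels were 2676, 2612 and 2609 CPM in the non-conditioned lineage and 3145, 3492 and 3417 CPM in the conditioned lineage, so that the t0 groups did not overlap. Under LPS it reached 4997, 4653 and 5007 CPM and 4519, 5189 and 4633 CPM, where the groups did overlap. The LPS difference was 0.96 ± 0.14 without and 0.51 ± 0.14 with conditioned parents. Between the lineages it differed by 0.46 ± 0.14 at t0 (edgeR adjusted p = 0.137), by 0.01 ± 0.14 under LPS (edgeR adjusted p = 0.999) and by -0.07 ± 0.14 under heat (edgeR adjusted p = 0.987). The t0 difference passed with DESeq2 (adjusted p = 0.0381) and with voom (adjusted p = 0.0286), and the adjusted p ranged from 0.0286 to 0.978 over its 27 alternatives. The t0 libraries of the conditioned lineage were also the shallow ones, and depth and lineage cannot be told apart there.

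**Figure D3:**
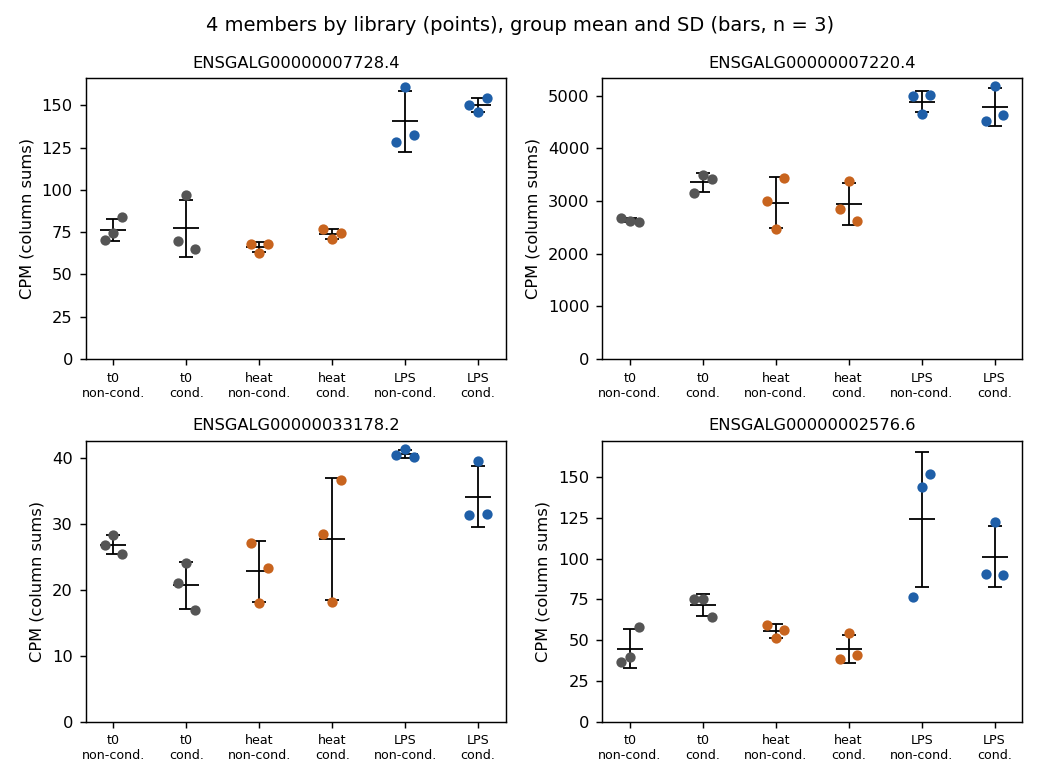
Points are CPM in single libraries and bars the group mean and SD (n = 3) for the 4 members named by rule. In the upper panels the 6 LPS libraries stand clear of the 12 others, while in ENSGALG00000033178.2 (lower left) the highest heated library of the conditioned lineage, at 36.6 CPM, reaches into the LPS range.

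No member passed the test for heat against t0 in the conditioned lineage, whose heated libraries had no part in the choice. The median member differed from t0 by -0.10 on the log2 scale, beside 0.02 over all 7921 genes, with a range of -0.77 to 0.36. Of the 26 members 8 had a positive and 18 a negative estimate, against 51.9% positive over all genes. EdgeR called 0 of 26 members, beside 0% of all genes higher and 0% lower. DESeq2 and voom also called 0 members, where few genes were called at all. Of the 7921 genes DESeq2 called 15 higher and 29 lower, and voom 3 and 1. At an unadjusted p under 0.05 there were 3 members, all lower (ENSGALG00000002576.6, ENSGALG00000009179.5 and ENSGALG00000018702.5), or 11.5%, beside 13.1% of all genes. This number was 1 without t0 library 2 or 3 of that lineage (3.85% beside 8.32% and 7.23%) and 5 without its t0 library 1 (19.2% beside 23.2%). Without both t0 libraries that stood apart, the median was -0.067, with 11 positive estimates, 0 members called and 1 at an unadjusted p under 0.05 (3.85% beside 3.86%). The t0 libraries had been chosen for low values, which favours a positive heat difference. In the non-conditioned lineage, where the rule set an upper limit, the median was 0.06, the range -0.56 to 0.44 and the number called 0, beside 0.0505% of all genes called higher (1 member at an unadjusted p under 0.05, ENSGALG00000038902.1, lower; 3.85% beside 6.7%). Leaving out 1 library gave 0 to 2 such members there, with 0 without its t0 library 1 (0% beside 6.33%). There were 2 without its t0 library 3, its LPS library 1 or heated library 2 or 3 of the conditioned lineage. The members' share exceeded that of all genes in 4 of these 18 fits.

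Library by library the heated levels were mixed. Against each member's t0 mean, the median member stood at -0.13, -0.17 and 0.08 in heated libraries 1 to 3 without and at 0.03, -0.30 and 0.04 in those with conditioned parents. Heated library 2 of the conditioned lineage was thus the lowest, with 4 members above their t0 mean and the lowest of all 18 values in 8 members. Scaling took part of this away. With TMM factors, which align the bulk of the genes rather than the totals, that library stood at -0.20 with 8 members above. In 15 of 26 members 0 of the 6 heated libraries exceeded the highest t0 library, and in no member did more than 3. Both counts lack a share of the 6037 genes, and the heat limit used part of these libraries. They describe the set, and no trait of the members is read from them. All 6 heated libraries lay above all t0 libraries in 0 members, beside 0.0331% of the 6037 genes. All 6 lay below them in 1 member, ENSGALG00000009179.5, beside 0.133%. This gene stood at 38.4, 45.1 and 45.8 CPM and at 46.9, 33.8 and 48.6 CPM under heat, against 50.1 to 57.6 CPM in the 6 t0 libraries. In the conditioned lineage alone, the heated libraries lay above those of t0 in 1 member (ENSGALG00000026373.2, 3.85% beside 9.26%) and below in 2 (ENSGALG00000002576.6 and ENSGALG00000009179.5, 7.69% beside 6.06%). With TMM factors these counts were 0 (0% beside 7.42%) and 4 (15.4% beside 8.38%), and over both lineages 0 members had all 6 heated libraries below those of t0 (0% beside 0.0663%).

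The heated libraries of the conditioned lineage also lay below the LPS libraries in most members. In 22 of 26, all 3 were lower than the lowest of the 6 LPS libraries, where 2.72% of the 6037 genes showed this. In the remaining 4, 2 of the 3 were lower. Over both lineages all 6 heated libraries were lower than all 6 LPS libraries in 20 of 26 members, beside 1.67%. In the edgeR fit LPS exceeded heat in this lineage in 14 of 26 members, beside 1.46% of all genes tested, with a median log2 difference of 0.78. The LPS side had been chosen for high values, so these counts describe and do not test. The count fell to 8 and 7 without heated library 2 or 3, and to 9 without LPS library 1 or 2 of that lineage. Shares of all genes are not given for these refits.

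The members at the ends of the range of heat estimates in the conditioned lineage did not pass, with 3 libraries in each group. ENSGALG00000033178.2 had the largest estimate in the conditioned lineage. It stood at 21.1, 23.97 and 16.9 CPM at t0 and at 28.4, 18.1 and 36.6 CPM under heat, so that the groups overlapped. The log2 difference was 0.36 ± 0.23 (edgeR adjusted p = 0.488, range 0.375 to 1 over its alternatives). Under LPS it stood at 40.4, 41.3 and 40.1 CPM in the non-conditioned and at 31.3, 39.4 and 31.5 CPM in the conditioned lineage, above all 6 t0 libraries, whose highest value was 28.3 CPM. Its LPS call on the average of both lineages (edgeR adjusted p = 0.0128) was lost without the pair of t0 libraries that stood apart (edgeR adjusted p = 0.118, the highest of a range from 0.00557).

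ENSGALG00000002576.6 had the smallest estimate. At t0 it stood at 36.3, 39.4 and 58.3 CPM in the non-conditioned and at 75.2, 75.3 and 64.0 CPM in the conditioned lineage, with no overlap. Under heat it stood at 59.4, 51.4 and 56.1 CPM and at 38.4, 54.3 and 40.6 CPM, the heated libraries of the conditioned lineage all lying below their t0 libraries. The log2 heat difference was -0.77 ± 0.26 in the conditioned lineage (edgeR adjusted p = 0.271) and 0.44 ± 0.25 in the other (edgeR adjusted p = 0.761). Under LPS it stood at 76.6, 144 and 152 CPM and at 90.5, 123 and 90.1 CPM. LPS library 1 of the non-conditioned lineage was thus only just above the highest t0 library of the other lineage. With TMM factors the heat difference of the non-conditioned lineage was 0.46, above the limit of 0.4, so that this gene left the set.

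**Figure D4:**
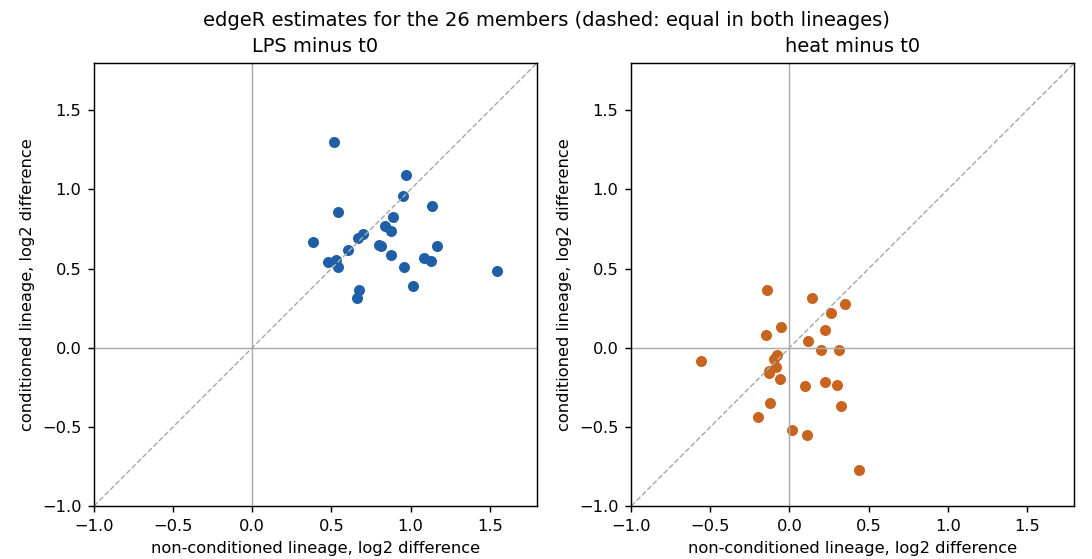
Each point is 1 of the 26 members, with its edgeR log2 difference from t0 in the non-conditioned lineage on the x axis and in the conditioned lineage on the y axis, for LPS (left) and heat (right). LPS estimates all lie above 0 in both lineages, by the rule, and 16 of 26 lie below the line of equality, while heat estimates spread around 0, with ENSGALG00000002576.6 at 0.44 and -0.77.

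No member passed the edgeR test for a difference between the lineages, in the response to LPS or within any condition. The rule's separation of t0 from LPS libraries and its heat limit bear on libraries of these comparisons, so these tests are not independent of the choice. The size of the LPS response differed between the lineages, conditioned minus non-conditioned, by a median of -0.10 on the log2 scale over the members, beside 0.02 over all genes. The estimate was larger in the non-conditioned lineage in 16 members and larger in the conditioned lineage in 10, and in 13 members the estimates of the lineages lay within 0.2 of each other. The split moved with scaling. By column sums it was 13 and 13, with a median response difference of -0.036 beside 0.093 over all genes. With median-ratio size factors, another scaling, it was 18 and 8. EdgeR called 0 of 26 for this difference, beside 0% of all genes, and DESeq2 and voom called 0 members and 0 of 7921 genes. At an unadjusted p under 0.05 there were 3 members, 11.5% beside 6.1% of all genes: ENSGALG00000002576.6 (-1.06 ± 0.34, edgeR adjusted p = 0.764), ENSGALG00000010843.5 (-0.51 ± 0.23, edgeR adjusted p = 0.806) and ENSGALG00000007220.4 (-0.45 ± 0.20, edgeR adjusted p = 0.806). Single libraries moved this number from 1 to 5. It was 1 (3.85%) without t0 library 2 (beside 4.72%), t0 library 3 (beside 6.25%) or LPS library 1 (beside 7.37%) of the non-conditioned lineage or LPS library 3 of the conditioned lineage (beside 4.92%). It was 5 (19.2%) without t0 library 1 (beside 12.2%) or LPS library 2 (beside 7.85%) of the conditioned lineage. Without the pair of t0 libraries that stood apart, the median was 0.0043 and 2 members passed at that level (7.69% beside 4.34%). The largest difference of the other sign was that of ENSGALG00000026373.2, at 0.79. This gene stood at 12.3 ± 2.35 CPM at t0 and 16.7 ± 0.825 under LPS in the non-conditioned lineage, and at 7.79 ± 0.601 and 19.4 ± 1.07 CPM in the conditioned lineage (SD, n = 3). Its conditioned t0 libraries held 12, 9 and 6 counts.

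At t0 the members had a median difference, conditioned minus non-conditioned, of 0.09, beside -0.02 over all genes tested. Its sign moved with scaling. By column sums it was -0.025, with 11 positive and 15 negative estimates, beside -0.13 over all genes. In 3 members every conditioned library was higher (ENSGALG00000002576.6, ENSGALG00000007220.4 and ENSGALG00000042103.1; 11.5% beside 6.79% of the 6037 genes), and in 3 every one was lower (ENSGALG00000001962.6, ENSGALG00000026373.2 and ENSGALG00000033178.2; 11.5% beside 15.9%). With TMM factors these counts were 4 (15.4% beside 11.3%) and 2 (7.69% beside 9.64%). EdgeR called 0 members, beside 0% of all genes, with 3 at an unadjusted p under 0.05 (11.5% beside 15.7%), those whose conditioned libraries were all higher. DESeq2 and voom each called 2 members, ENSGALG00000002576.6 and ENSGALG00000007220.4. Of the 7921 genes DESeq2 called 179 higher and 66 lower, and voom 262 and 184. With t0 library 1 of the conditioned lineage left out, 5 members passed at an unadjusted p under 0.05 in edgeR (19.2% beside 24.5%). Leaving out 1 library gave 2 to 5 such members, in 0 of 18 fits at a share above that of all genes. Without the pair of t0 libraries that stood apart, the median was -0.023, on the other side of 0, with 0 members called and 1 at an unadjusted p under 0.05 (3.85% beside 5.14%). For ENSGALG00000002576.6 the t0 difference was 0.80 ± 0.25 (edgeR adjusted p = 0.137, range 0.0464 to 0.959 over its alternatives). Under LPS the median was -0.10, beside 0.002 over all genes tested. In 7 members every conditioned library was lower and in 2 every one was higher (ENSGALG00000026373.2 and ENSGALG00000036726.2), 26.9% and 7.69%, beside 5.67% and 3.46% of the 6037 genes. With TMM factors the 7 fell to 4 (15.4% beside 4.52%) and the 2 remained (7.69% beside 4.77%). EdgeR, DESeq2 and voom called 0 members and 0 of 7921 genes under LPS, where edgeR had 1 member at an unadjusted p under 0.05, ENSGALG00000010843.5 (3.85% beside 3.8%). That count was 0 without LPS library 2 of the non-conditioned or 3 of the conditioned lineage, and 2 without LPS library 1 of either lineage or LPS library 2 of the conditioned one. The members' share exceeded that of all genes in 11 of 18 fits with 1 library left out, where 1 member makes 3.85%. ENSGALG00000010843.5 stood at 134, 152 and 120 CPM in the non-conditioned and at 105, 102 and 84.4 CPM in the conditioned lineage (-0.43 ± 0.16, edgeR adjusted p = 0.999). LPS libraries 2 and 3 of the conditioned lineage had TMM factors of 0.962 and 0.956 against 1.002 to 1.02 in the other LPS libraries. Under heat the median was -0.08, beside -0.003 over all genes tested. Every conditioned library was higher in 1 member (ENSGALG00000007728.4, 3.85% beside 9.04%) and lower in 0 (0% beside 2.67%). With TMM factors it was higher in 0 (0% beside 5.88%) and lower in 1 (ENSGALG00000029408.2, 3.85% beside 5.09%). EdgeR, DESeq2 and voom called 0 members under heat, where edgeR called 0% of all genes higher and 0.0252% lower. Of the 7921 genes DESeq2 called 2 higher and 8 lower, and voom 0 and 2. EdgeR had 1 member at an unadjusted p under 0.05, ENSGALG00000002598.6, which was lower (3.85% beside 5.88%). In the conditioned lineage, leaving out heated library 1 made this 2 and leaving out heated library 3 made it 0, as did leaving out heated library 2 or 3 of the other lineage. The members' share exceeded that of all genes in 1 of 18 fits with 1 library left out.

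The heat response, whose non-conditioned arm the rule limits, differed between the lineages by a median of -0.09 over the members, beside 0.01 over all genes. EdgeR called 0 of 26, beside 0% of all genes (2 at an unadjusted p under 0.05, 7.69% beside 13.8%). These were ENSGALG00000002576.6 (-1.21 ± 0.36, edgeR adjusted p = 0.169) and ENSGALG00000007220.4 (-0.54 ± 0.20, edgeR adjusted p = 0.268). DESeq2 called the former (adjusted p = 0.0497), beside 35 of 7921 genes called higher and 88 lower. Voom called 0 members, beside 32 genes higher and 32 lower. The 2 members at an unadjusted p under 0.05 in edgeR became 1 without heated library 3 of either lineage. They became 3 without t0 library 1, heated library 1 or 2 or LPS library 2 of the conditioned lineage. In 1 of 18 fits with 1 library left out the members' share exceeded that of all genes. Without the pair of t0 libraries that stood apart, the median was -0.057, with 0 members called and 1 at an unadjusted p under 0.05 (3.85% beside 5.31%). Both heat and LPS differences take the same t0 libraries as their base, and in both genes the t0 libraries of the conditioned lineage were the higher ones.

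Pairwise correlations between the members from library to library were low. Over the 18 libraries, deviations from the 6 group means had a median Pearson r of 0.12 over the 325 pairs of members, with quartiles of -0.14 and 0.33, and 63.4% of pairs were positive. Over all pairs of the 6037 genes the median was 0.04 and 54.5% were positive. These pairs share libraries, depth and scaling, and the values are a description. How far the few counts of some members lowered r was not tested. The pooled SD within groups had a median of 0.23 over the members and 0.29 over the 6037 genes (log2 scale), in a set that the rule on overlap had chosen for tight t0 and LPS groups. The widest value of any member in any LPS library was that of ENSGALG00000042103.1, at 713 CPM in LPS library 2 of the conditioned lineage against 290 and 311 CPM in the other two.

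Genes that met the same rule but exceeded the upper LPS limit numbered 42. They had a median LPS difference of 1.45 and a median t0 level of 30.9 CPM, beside 0.69 and 57.6 CPM for the 26 members. Under heat in the conditioned lineage their median difference was -0.08 (quartiles -0.37 and 0.10), beside -0.03 (quartiles -0.19 and 0.11) for the members, all on the scale of library totals. The share at or above 0.4 was 6 of 42 there and 1 of 26 here, ENSGALG00000025884.2, beside 20.1% of the 6037 genes. The difference between these sets was not tested.

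Scaling bore on who belonged to the set. With TMM factors in place of library totals the rule gave 29 genes, of which 20 were among the 26, that is 76.9% of the one list and 69.0% of the other. Of the 6 lost, 3 had overlapping libraries, 1 passed the heat limit, 1 the upper LPS limit and 1 fell under 10 CPM, and all 9 gained had overlapped by library totals. By library totals rather than TMM factors, the median of all genes tested shifted by -0.12 in the heat difference of the non-conditioned lineage, by -0.12 in the t0 difference between lineages and by 0.19 in the difference of the heat responses. Relative to the median of all genes tested, the members' median heat difference was 0.05 without and -0.12 with conditioned parents by either scaling.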

How the data were processed

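RNA was extracted with TRI reagent and made into bulk MARS-seq 3′ libraries, per the labels' protocols. The submitters' processing notes list cutadapt, STAR, HTSeq and DESeq2 with galGal5. What these tools were set to, including strand, molecular identifiers and the choice of listed genes, is not given in the sources used here. Raw counts per gene were deposited for 18 libraries. The second block is normalized signal, which the authors made by dividing each raw column by 1 constant. It was not tested. The 10 methylation libraries are not analysed here. Counts were tested with edgeR 4.0.16 (TMM, filtering by group, 7921 genes holding 99.5% of counts, all 26 members kept) in R 4.3.3, in 1 model of 6 group means, checked on simulated data. SEs are the log2 difference over the square root of F. Alternatives used DESeq2 1.42.0, limma 3.58.1 (voom with quality weights), other scalings and filters, a replicate block and left-out libraries. Members and lists were chosen with earlier results of these data known. Without symbols, the rule named 2 members by LPS difference over SE and the members with the largest and smallest heat difference in the conditioned lineage. Other identifiers stand behind counts of 5 or fewer or mark an extreme, and were chosen after their values were seen.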

Additional observations from a re-analysis of the deposited data

Results flagged for a closer look

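ENSGALG00000002576.6 was flagged because its estimated heat response ran in opposite directions in the lineages. Neither response passed in edgeR, at 0.44 (edgeR adjusted p = 0.761) without and -0.77 (edgeR adjusted p = 0.271) with conditioned parents. Every heated library of the non-conditioned lineage lay above the mean of its t0 libraries, and every heated library of the conditioned lineage lay below. T0 library 3 of the non-conditioned lineage, at 58.3 CPM, exceeded heated libraries 2 and 3 of that lineage, at 51.4 and 56.1 CPM. The difference of the responses, conditioned minus non-conditioned, was -1.21 ± 0.36 (edgeR adjusted p = 0.169), and it passed with DESeq2 alone (adjusted p = 0.0497, the lowest of a range up to 0.899 over 27 alternatives). For this difference DESeq2 called 35 of 7921 genes higher and 88 lower. By library totals ENSGALG00000002576.6 was the only member with this pattern of opposite directions, 1 of 26 or 3.85%. Of the 6037 genes at or above 10 CPM, 3.03% showed the pattern. The share of the members is near that of all genes, and no trait of the members is read from it. The reverse was shown by 0 members and by 14.8% of the 6037 genes. With TMM factors 3 members had the pattern, and the share of all genes was not counted with these factors. By library totals rather than TMM factors, the median difference of the responses over all genes tested shifted by 0.19. How rare the pattern is with TMM factors is therefore not known. Groups of 3 libraries are too small for the check on single outlying libraries.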

How the results depend on the processing

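The rule gave 26 to 45 members when 1 of the 15 libraries it uses was left out, the 45 without LPS library 2 of the conditioned lineage. It gave 39 without that lineage's t0 libraries 2 and 3, an alternative chosen after seeing the data. Fewer libraries make the separation easier to meet. Leaving out 1 library at a time, LPS against t0 called 9 to 18 members in the non-conditioned and 2 to 6 in the conditioned lineage, and LPS against heat called 4 to 14 and 7 to 15. These ranges stand without shares of all genes, and nothing about the members is read from them. The median member difference ran from -0.055 to 0.16 for heat in the non-conditioned lineage, from -0.047 to 0.14 between lineages at t0 and from -0.17 to 0.069 between lineages under heat. By column sums, LPS against t0 called 11 members higher in the non-conditioned lineage (152 of 7921 genes) and LPS against heat 9 in the conditioned lineage (104 of 7921). The median members then differed by -0.068 for heat in the non-conditioned lineage and by 0.11 in the difference of the heat responses, following the shift of all genes. In the conditioned lineage LPS against t0 called 8 members higher with DESeq2 (127 of 7921 genes), 3 without a filter (85 of 11193) and 2 with the compared groups only (61 of 6504). LPS against heat called 6 higher in that lineage with the compared groups only (98 of 7287 genes). Between lineages, DESeq2 called 2 members at t0 (179 of 7921 genes higher and 66 lower) and 1 for the heat response (35 and 88). Voom called 2 at t0 (262 and 184). The cause of these changes was not tested. Counts of members without overlap under TMM factors, and the check of the numbers in library names, were also chosen after seeing the data.

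Deviations of libraries with the same number in their titles had r of -0.24 to 0.32 over 45 pairs. Of 15 pairs each, 11 were over 0.1 for number 1, 1 for number 2 and 5 for number 3, and 10 of 18 libraries had their highest mean r with their own number. The library names carry other numbers, for which 9 of 34 pairs were over 0.1 and 5 of 18 libraries were highest with their own. In neither numbering did every pair exceed 0.1, but partly tied libraries could also miss that mark, so it decides nothing. The labels tie no number to a shared bird, batch or day. Neither numbering was therefore taken to pair libraries, and the block uses the title numbers. With a replicate block, LPS against t0 called 18 members higher in the non-conditioned lineage (183 of 7921 genes) and 5 in the conditioned lineage (105 of 7921). LPS against heat called 12 (126 of 7921) and 14 (116 of 7921). Members near 10 CPM rest on few counts at the depth of the conditioned t0 libraries.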
